A study of Homo sapiens with 9 samples.

Results

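Molecular chaperones help proteins reach and keep their folded state. HSP70 proteins bind short stretches of unfolded clients, J-domain proteins (the DNAJ families) bring the client and trigger ATP hydrolysis, and the HSP110 relatives release ADP so that the cycle can start again. HSP90 acts on partly folded kinases and receptors, the barrel-shaped chaperonins HSP60 and TRiC (the CCT subunits) enclose whole proteins, and small heat shock proteins hold damaged proteins until HSP70 can take them. Many of these genes are driven by heat shock factors, which bind inverted repeats of the letters GAA, and cancer cells often depend on them.

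The genes described are the cytosolic and mitochondrial chaperones, taken by symbol as the HSPA, HSPB, HSPD1, HSPE1, HSPH1, HSP90A, DNAJA, DNAJB, DNAJC and CCT2 to CCT8 genes, with HSPA5, DNAJB9, DNAJB11 and DNAJC3 of the endoplasmic reticulum left out. A gene needed a probe set (a group of array probes read together) annotated to exactly 1 gene, and the one with the highest mean over all arrays stood for it. This gave 76 genes of the 19775 with such a probe set, and 71 of the 76 encode proteins. The label holds for many of them, but the symbol rule also keeps genes whose products act elsewhere. Examples are DNAJC10, DNAJC1, DNAJB12, DNAJB14 and HSPA13, in or on the endoplasmic reticulum, DNAJC13 on endosomes and DNAJC17 in the nucleus. HSPA1A, HSPA1B, HSPA8 and DNAJC25 have no value here, because the array reads them with probe sets annotated to several genes.

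RNA was measured on 9 Affymetrix arrays of A549, a human lung adenocarcinoma line, untreated and kept in medium with serum. The 3 groups of 3 arrays were compared: cells with a control oligo (si_Ctrl), cells with an RNA interference oligo against MED23 (si_Med23), a subunit of Mediator, the bridge between transcription factors and the polymerase, and cells with an oligo against ELK1 (si_Elk1), an ETS transcription factor that ERK phosphorylates. Each knockdown used 3 different oligos, A, B and C, described as separate cell lines, so the spread within a knockdown includes differences between oligos. No label calls the 3 controls independent cultures, so the p-values gauge the scatter of these 9 samples alone, part of which may be technical.

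On the log2 scale MED23 fell by 2.46 in si_Med23 (18.2% of the control signal; limma adjusted p = 0.00184) and ELK1 fell by 2.07 in si_Elk1 (23.8%; adjusted p = 0.00684). The 6 epithelial markers were all above the level needed for testing. Of 9 markers of blood, endothelial and stromal cells with a probe set, 4 were above it (CD14, CD3E, CD79A and PECAM1), and PTPRC, the general leukocyte marker, was below it. The summed signal of these 9 markers, as log2, was 9.49 to 10.03 in si_Ctrl, 9.93 to 10.49 in si_Med23 and 10.55 to 10.78 in si_Elk1. The single markers did not move together. CD14 read 7.48 to 8.06 in si_Ctrl, 8.91 to 9.81 in si_Med23 and 9.30 to 9.67 in si_Elk1. CD3E read 6.37 to 7.33, 3.46 to 6.58 and 6.83 to 7.95 in the same order. The part of the summed signal in the results was not tested. In such bulk RNA, fewer cells of a type and less RNA per cell cannot be told apart.

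Directions are read against each array's trimmed mean signal, which is about 500 on every array as deposited. The 24 poly-A spike probe sets, for bacterial RNA added before labelling, gave mean log2 signals of 7.43, 7.82 and 7.58 in si_Ctrl, 9.31, 9.26 and 9.08 in si_Med23 and 8.36, 7.92 and 8.46 in si_Elk1. Scaling the arrays on these spikes would move every log2 fold change by -1.61 in si_Med23 and by -0.64 in si_Elk1. Scaling on the hybridization controls would move them by -0.50 and -0.18, and centring on the array median by 0.23 and -0.14. The order of the genes among themselves does not depend on these shifts. The 3 probe sets for 18S rRNA had mean log2 signals of 7.58 to 8.11 in si_Ctrl, 8.39 to 9.03 in si_Med23 and 7.79 to 8.24 in si_Elk1, so si_Med23 lay above both other groups.

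Of the 76 genes, 61 were bright enough to test, with a mean of at least log2 6.05. These were 4 of 4 DNAJA, 8 of 10 DNAJB, 23 of 26 DNAJC, 7 of 8 HSP70, 3 of 3 HSP110, 2 of 2 HSP90, 2 of 2 HSP60, 8 of 9 TRiC and 3 of 7 small heat shock genes, and 1 of 5 non-coding neighbours. Just outside lay HSPA6, the strictly heat-inducible HSP70, with group means of 5.96, 5.93 and 5.35 in si_Ctrl, si_Med23 and si_Elk1. Just inside lay the non-coding DNAJC9-AS1, at 6.24, 6.14 and 7.56. The other untested coding genes were CCT8L2, DNAJB7, DNAJB8, DNAJC15, DNAJC28, DNAJC5G, HSPB2, HSPB3, HSPB7 and HSPB9.

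The comparison of si_Med23 with si_Ctrl asked which chaperone transcripts depend on MED23. The HSP110 exchange factors fell together, all 3 by 2-fold or more, and so did DNAJC2, DNAJC10, DNAJC13 and DNAJB14 among the J-domain genes. The small heat shock genes HSPB1 and HSPB8 rose by about 2-fold. Their dim relative HSPB6 fell, to a si_Med23 mean below the level needed for testing. Most subunits of TRiC, the mitochondrial chaperonin pair and HSP90AB1 did not pass the test. In all 12 of the 61 tested genes rose, 16 fell and 33 did not pass, so 45.9% were called where 39.8% of all 12616 tested genes were. Among all genes 20.3% rose and 19.5% fell, and the chaperone shares are close to that background. The median log2 fold change of the chaperone genes was -0.01, beside 0.09 for all genes, and the values ran from -1.96 to 1.18. Of the 61, 11 were called with a change of at least 2-fold, beside 13.7% of all genes. Across genes, which are not independent replicates and share these arrays, longer gene spans went with lower fold changes, with a Spearman rho of -0.31 over the 61 chaperone genes and -0.26 over all genes. The parts of gene span and of the 18S rRNA signal in the changes were not tested. The counts of 12 higher and 16 lower came to 24 and 12 after median centring, to 5 and 33 with hybridization control scaling and to 0 and 57 with spike scaling.

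**Figure D1:**
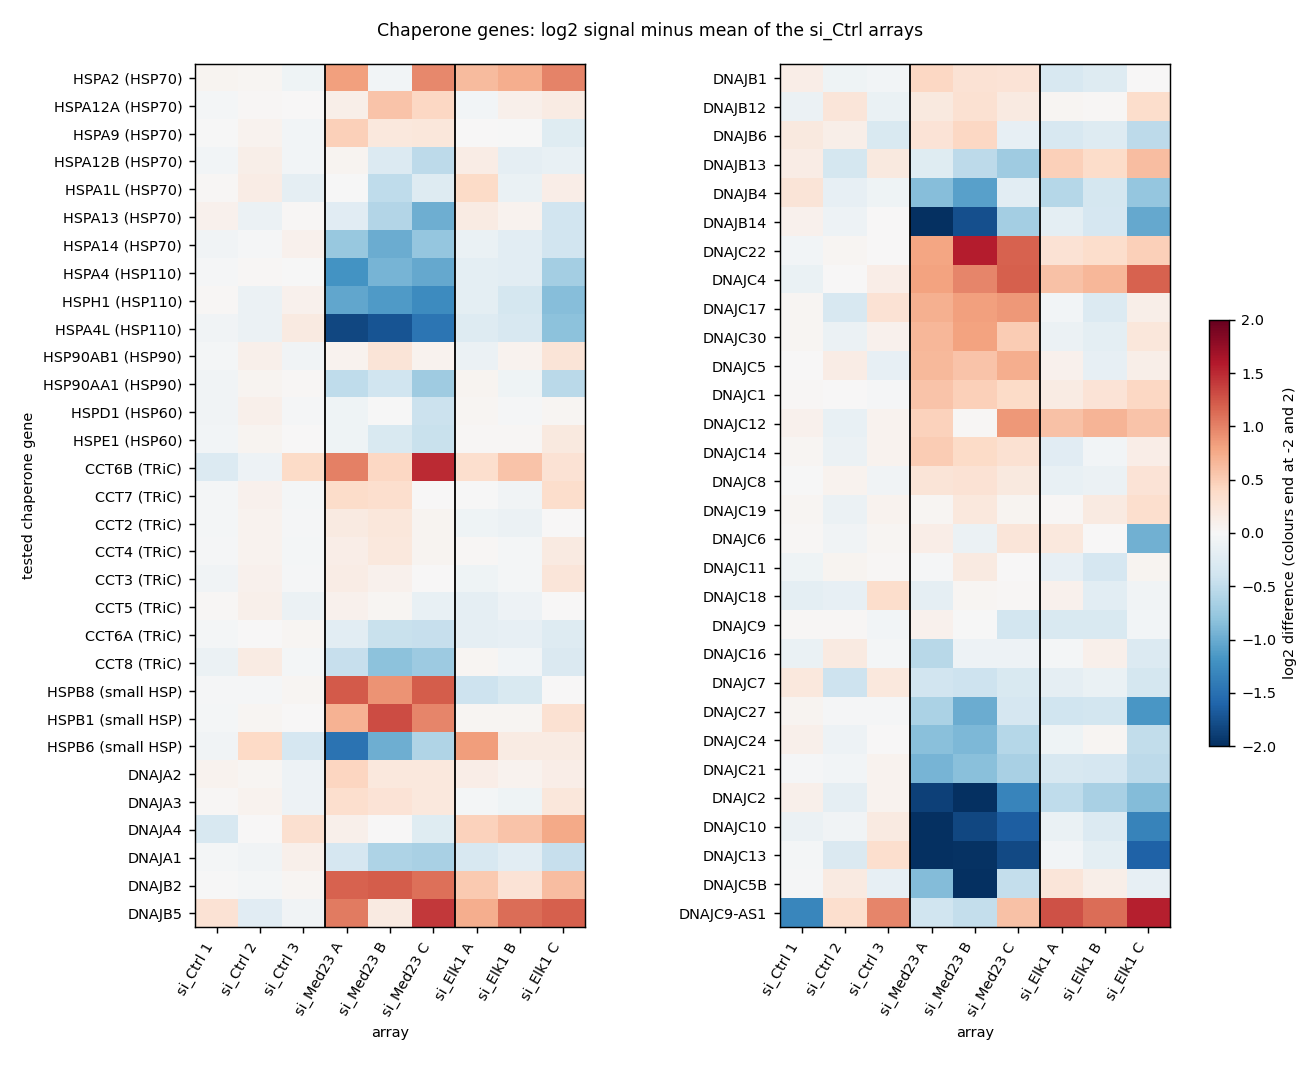
Each row is a tested chaperone gene, ordered by family and then by its log2 fold change in si_Med23, and each column is an array. Colour gives the log2 signal minus the mean of the 3 si_Ctrl arrays, with colours ending at -2 and 2. The HSP110 rows and DNAJC2, DNAJC10 and DNAJC13 are blue on all 3 si_Med23 arrays, and the array of si_Elk1 oligo C is bluer than oligos A and B for most of the same rows.

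The HSP110 group holds HSPH1 (chromosome 13), HSPA4 (chromosome 5) and HSPA4L (chromosome 4), large HSP70 relatives that act mainly as nucleotide exchange factors and, with HSP70 and J-domain proteins, in dissolving aggregates. HSPH1 had log2 signals of 12.62, 12.48 and 12.69 in si_Ctrl, 11.56, 11.46 and 11.34 with the si_Med23 oligos A, B and C, and 12.40, 12.25 and 11.74 with the si_Elk1 oligos. All si_Med23 arrays lay below all others, and the si_Elk1 arrays lay between, with oligo C lowest. HSPH1 fell by 1.14 ± 0.18 (SE, n = 3 arrays per group) on the log2 scale in si_Med23, or 2.20-fold, with a limma adjusted p = 0.00291. HSPA4 read 12.40, 12.45 and 12.42 in si_Ctrl, 11.23, 11.50 and 11.40 in si_Med23 and 12.23, 12.21 and 11.75 in si_Elk1. Here too the 3 groups did not overlap, and the change in si_Med23 was -1.05 ± 0.15 (adjusted p = 0.00254).

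HSPA4L, the paralog of HSPA4 best known from testis, read 9.61, 9.56 and 9.85 in si_Ctrl, 7.85, 7.94 and 8.21 in si_Med23 and 9.42, 9.35 and 8.86 in si_Elk1. It fell by 1.68 ± 0.18 in si_Med23, or 3.20-fold (adjusted p = 0.00184), the largest fall outside the J-domain genes that passed. The further probe sets of these genes gave the same picture: -1.15 and -1.38 for HSPH1, -2.16 for HSPA4L, and -1.09, -0.90 and -0.50 for HSPA4, of which only the last did not pass. That dim HSPA4 probe set is the one left when probe sets ending in _x_at or _s_at, which can read related genes, are removed, and the HSPA4 call was then lost (adjusted p = 0.235). HSPH1 and HSPA4L kept their calls under every alternative run, median centring and all left-out arrays included. Spike and hybridization control scaling move si_Med23 values down and so hardly test a fall.

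**Figure D2:**
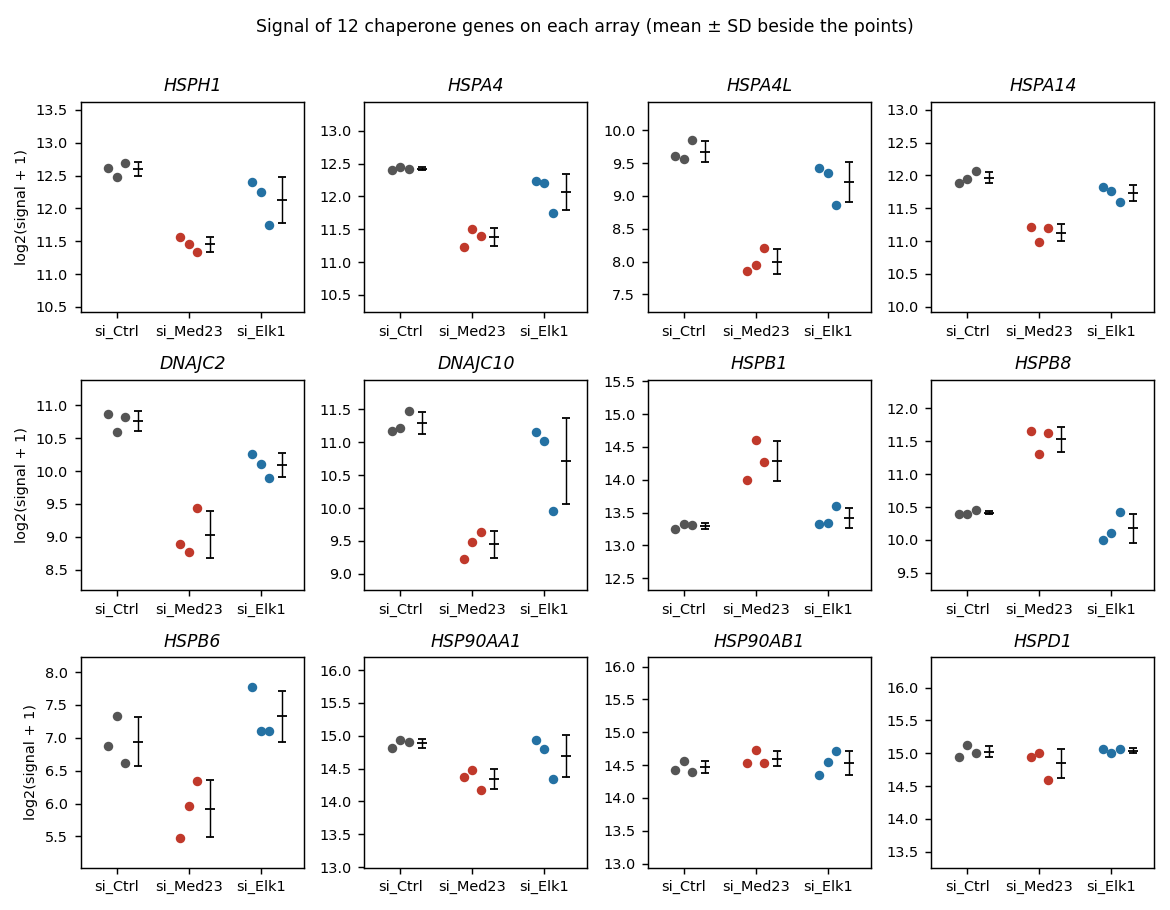
Points are the log2(signal + 1) of 12 chaperone genes on each of the 9 arrays, by group, and the bar beside each group is its mean ± SD (n = 3); each panel spans the same range of log2 units. HSPH1, HSPA4, HSPA4L, HSPA14, DNAJC2 and DNAJC10 are lowest in si_Med23, HSPB1 and HSPB8 are highest there, and HSP90AB1 and HSPD1 overlap between the groups.

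The small heat shock genes were the other family in which every tested member passed in si_Med23, in both directions. HSPB6 was tested only because of its signal in the other groups. Its mean was 6.94 in si_Ctrl and 7.33 in si_Elk1, but 5.92 in si_Med23, below the filter level of log2 6.05. HSPB1 encodes HSP27, an oligomeric holdase that also binds actin, HSPB8 works with BAG3 in selective autophagy, and HSPB6 is best known from muscle. The 250 bases before their transcription starts, from RefSeq (GRCh38.p14), are shown because heat shock factors bind repeats of GAA, and each of the 3 holds such units as an inverted pair. They are written 5′ to 3′ on the strand of the gene and end at the base before the start, and capitals mark matches to GAANNTTC or TTCNNGAA. The windows lie at chr7:76302423-76302672 on the plus strand (HSPB1), chr12:119178681-119178930 on the plus strand (HSPB8) and chr19:35757030-35757279 on the minus strand (HSPB6).
HSPB1: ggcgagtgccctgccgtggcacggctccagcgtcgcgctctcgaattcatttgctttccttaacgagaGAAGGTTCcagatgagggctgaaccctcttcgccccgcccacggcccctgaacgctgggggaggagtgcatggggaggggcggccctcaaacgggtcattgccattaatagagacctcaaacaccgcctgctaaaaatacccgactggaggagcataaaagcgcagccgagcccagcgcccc
HSPB8: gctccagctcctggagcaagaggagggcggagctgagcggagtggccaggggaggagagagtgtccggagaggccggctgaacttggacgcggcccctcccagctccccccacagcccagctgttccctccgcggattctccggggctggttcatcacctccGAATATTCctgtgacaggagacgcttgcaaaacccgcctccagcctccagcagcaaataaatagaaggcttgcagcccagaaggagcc
HSPB6: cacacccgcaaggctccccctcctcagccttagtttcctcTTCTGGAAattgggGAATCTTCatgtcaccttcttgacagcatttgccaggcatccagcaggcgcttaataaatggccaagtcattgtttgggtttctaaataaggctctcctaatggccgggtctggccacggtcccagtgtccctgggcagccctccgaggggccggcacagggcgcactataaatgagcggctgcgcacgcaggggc

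The match is GAAGGTTC at -182 to -175 in HSPB1, counted from the start site, and GAATATTC at -88 to -81 in HSPB8. HSPB6 holds TTCTGGAA at -210 to -203 and GAATCTTC at -196 to -189. Both motifs read the same on either strand. Among the 54 tested chaperone genes with such a window, 7 (13%) held one or both, beside 8.68% of the 10257 windows of tested genes, and the others were CCT6B, DNAJA1, DNAJB6 and HSPA1L. A run of 3 units, the first motif followed by a further NNGAA, searched on both strands, was in 1 of the 54, DNAJB6, beside 0.37% of the windows. A match is a description of letters and not a bound site. Only exact matches were counted, so a window without one is not shown to lack a heat shock element. Heat shock elements farther than 250 bases were not searched.

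HSPB1 read 13.25, 13.33 and 13.31 in si_Ctrl, 13.99, 14.60 and 14.27 in si_Med23 and 13.33, 13.34 and 13.60 in si_Elk1. The si_Med23 arrays lay above all others, and the si_Elk1 arrays overlapped the controls. HSPB1 rose by 0.99 ± 0.17 in si_Med23, or 1.98-fold (adjusted p = 0.00365). With spike scaling it was -0.62 and passed as lower. HSPB8 read 10.40, 10.40 and 10.45 in si_Ctrl, 11.65, 11.31 and 11.63 in si_Med23 and 10.00, 10.11 and 10.42 in si_Elk1. It rose by 1.12 ± 0.15, or 2.17-fold (adjusted p = 0.00218), a value that was -0.49 with spike scaling.

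HSPB6 went the other way on the signals as deposited, while with spike scaling HSPB1 (-0.62) and HSPB8 (-0.49) were below 0 as well. HSPB6 read 6.88, 7.34 and 6.61 in si_Ctrl, 5.47, 5.96 and 6.34 in si_Med23 and 7.78, 7.10 and 7.10 in si_Elk1. Its change in si_Med23 was -1.02 ± 0.29 (adjusted p = 0.0225), but 2 of the 3 si_Med23 signals lay below the filter level, and with signals raised to that level it was -0.79. The call was lost with no filter, and without si_Ctrl replicate 1 or 2 and without si_Med23 oligo A or B (adjusted p from 0.0516 to 0.0724). None of the 3 passed in si_Elk1, with log2 fold changes of 0.12, -0.24 and 0.39 for HSPB1, HSPB8 and HSPB6.

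Of the 7 tested HSP70 genes only HSPA14 passed in si_Med23, and DNAJC2, which encodes its partner, fell as well. HSPA14 and DNAJC2 form the mammalian ribosome-associated complex, which meets nascent chains at the exit tunnel. HSPA14 read 11.89, 11.95 and 12.06 in si_Ctrl, 11.21, 10.98 and 11.20 in si_Med23 and 11.83, 11.76 and 11.59 in si_Elk1. It fell by 0.84 ± 0.12 (adjusted p = 0.00264). Its other probe sets read 0.40 and -0.05 on that scale and did not pass, so this fall rests on 1 of 3 probe sets. DNAJC2 read 10.87, 10.59 and 10.83 in si_Ctrl, 8.89, 8.76 and 9.44 in si_Med23 and 10.26, 10.11 and 9.90 in si_Elk1. It fell by 1.74 ± 0.19, or 3.33-fold (adjusted p = 0.00184), and its other probe set was too dim to read. Averaged with that dim one, DNAJC2 was -0.57 and did not pass (adjusted p = 0.231).

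The other HSP70 genes did not pass. HSPA9, the mitochondrial HSP70 that pulls proteins through the inner membrane, read 13.07, 13.15 and 13.02 in si_Ctrl and 13.55, 13.29 and 13.31 in si_Med23 (0.30 ± 0.13, adjusted p = 0.0893). Its further probe sets above the filter level gave -0.12 and -0.56, and the last passed as lower (adjusted p = 0.0233), so the probe sets of HSPA9 disagree in sign. HSPA13 differed by -0.60 (adjusted p = 0.0528) on the log2 scale, close to the threshold: its other probe set passed as lower (-1.05, adjusted p = 0.0334), and the gene passed under 10 of the alternatives. HSPA2 differed by 0.57 (adjusted p = 0.0979). The remaining 3, HSPA12A, HSPA12B and HSPA1L, lay between -0.26 and 0.37.

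The HSP90 genes differed from each other. HSP90AA1, the inducible form, read 14.81, 14.94 and 14.90 in si_Ctrl, 14.38, 14.48 and 14.18 in si_Med23 and 14.94, 14.80 and 14.34 in si_Elk1. It fell by 0.54 ± 0.17 in si_Med23 (adjusted p = 0.0329), and all 3 further probe sets fell more, by 0.77, 0.98 and 1.43. The call on the brightest probe set was lost after median centring (-0.31, adjusted p = 0.174), without any of the si_Ctrl arrays, and without si_Med23 oligo A or C (adjusted p from 0.0648 to 0.095). HSP90AB1, the constitutive form, read 14.43, 14.57 and 14.40 in si_Ctrl and 14.53, 14.73 and 14.53 in si_Med23, with overlapping groups that differed by 0.13 ± 0.13 (adjusted p = 0.468).

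The mitochondrial chaperonin HSPD1 and its lid HSPE1 share a promoter region on chromosome 2. Their start sites lie 105 bases apart on opposite strands, and the 104 bases between them, chr2:197500275-197500378 on the strand of HSPE1, are shown because they lie upstream of both genes; neither motif above is in them.
HSPE1: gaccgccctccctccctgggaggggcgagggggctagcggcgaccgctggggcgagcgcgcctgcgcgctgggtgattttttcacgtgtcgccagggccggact

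HSPD1 read 14.95, 15.12 and 15.00 in si_Ctrl, 14.94, 15.01 and 14.60 in si_Med23 and 15.06, 15.00 and 15.06 in si_Elk1. The groups overlapped, and si_Med23 differed from si_Ctrl by -0.18 ± 0.13 (adjusted p = 0.314). Of the 5 HSPD1 probe sets, the 3 further ones above the filter level gave -0.49, -0.86 and -0.92. All 3 passed as lower in the limma fit over all probe sets above that level (adjusted p = 0.0345, 0.016 and 0.0272), although 2 of them are much dimmer. HSPE1 read 14.20, 14.30 and 14.25 in si_Ctrl and 14.16, 13.94 and 13.81 in si_Med23, a change of -0.29 ± 0.12 (adjusted p = 0.0975).

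TRiC folds actin and tubulin, and its ring is built from 8 different subunits, TCP1 and CCT2 to CCT8. CCT2, CCT3, CCT4, CCT5 and CCT7 did not pass in si_Med23, with log2 fold changes of 0.15, 0.08, 0.13, -0.01 and 0.24. CCT8 was lower: it read 13.56, 13.84 and 13.65 in si_Ctrl, 13.22, 12.87 and 12.95 in si_Med23 and 13.73, 13.63 and 13.40 in si_Elk1. The fall of 0.67 ± 0.15 (adjusted p = 0.00921) was kept under all alternatives run for CCT8. CCT6A was lower by a smaller amount (-0.36 ± 0.11, adjusted p = 0.0318). That call was lost after median centring (adjusted p = 0.404), without any of the si_Ctrl arrays, and without si_Med23 oligo B or C (adjusted p from 0.0726 to 0.099). CCT6B, a paralog of CCT6A known from testis, read 7.11, 7.28 and 7.76 in si_Ctrl and 8.39, 7.80 and 8.88 in si_Med23. It rose by 0.97 ± 0.27 (adjusted p = 0.022), was -0.64 with spike scaling, and lost its call without si_Ctrl replicate 1 or 2 or si_Med23 oligo A or C (adjusted p from 0.0561 to 0.0717). Of 5 tested genes of prefoldin, the complex that hands clients to TRiC, PFDN5 rose (0.56 ± 0.13, adjusted p = 0.0123) and VBP1 fell (-0.73 ± 0.17, adjusted p = 0.0102). PFDN1, PFDN2 and PFDN4 did not pass, and TCP1 and PFDN6 were not among the genes tested.

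**Figure D3:**
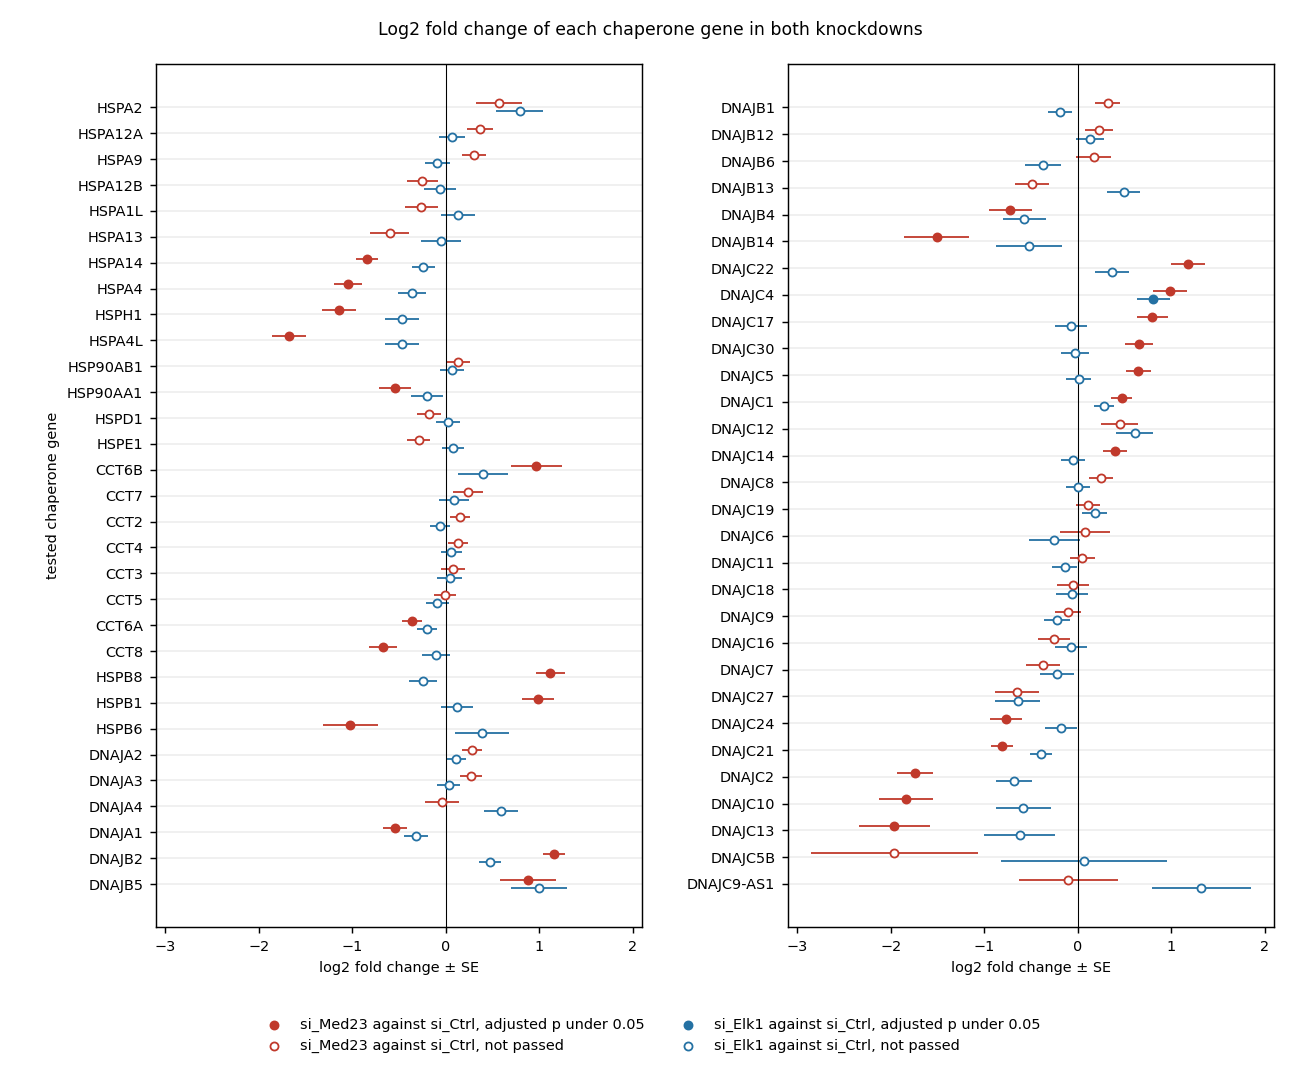
Log2 fold change ± SE of each tested chaperone gene in si_Med23 (red) and si_Elk1 (blue), both against the same 3 si_Ctrl arrays; filled circles passed the limma adjusted p threshold of 0.05. In si_Med23 12 genes are filled to the right of 0 and 16 to the left, and in si_Elk1 only DNAJC4 is filled.

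The 35 tested J-domain genes of the DNAJA, DNAJB and DNAJC families split into 9 that rose and 8 that fell in si_Med23, and 18 did not pass. Of the 4 DNAJA genes, which bind HSP70 clients themselves, DNAJA1 fell: it read 13.67, 13.64 and 13.80 in si_Ctrl, 13.36, 13.08 and 13.06 in si_Med23 and 13.39, 13.50 and 13.25 in si_Elk1. The change was -0.54 ± 0.13 (adjusted p = 0.0129), with a further probe set at -0.68, and it was lost after median centring (-0.30, adjusted p = 0.114) and without si_Ctrl replicate 3 (adjusted p = 0.0527). DNAJA2 (0.28 ± 0.11, adjusted p = 0.0803) and the mitochondrial DNAJA3 (0.27 ± 0.12, adjusted p = 0.11) did not pass. DNAJB1, the main heat-inducible partner of HSP70, read 12.69, 12.47 and 12.49 in si_Ctrl and 12.96, 12.84 and 12.82 in si_Med23. The groups did not overlap, but the change of 0.32 ± 0.13 did not pass (adjusted p = 0.0801).

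DNAJB2, which carries ubiquitin-interacting motifs and sorts clients to the proteasome, read 7.51, 7.49 and 7.57 in si_Ctrl, 8.70, 8.74 and 8.62 in si_Med23 and 8.05, 7.80 and 8.14 in si_Elk1. It rose by 1.16 ± 0.12, or 2.24-fold (adjusted p = 0.00184). With spike scaling it was -0.45 and passed as lower. DNAJB14, anchored in the endoplasmic reticulum membrane with its J domain in the cytosol, read 9.13, 8.93 and 9.05 in si_Ctrl and 6.93, 7.28 and 8.35 in si_Med23. It fell by 1.51 ± 0.35 (adjusted p = 0.0113), with oligo C least changed, and both further probe sets passed as lower (-1.57 and -1.80). The other 2 calls in this family, DNAJB5 higher (0.88) and DNAJB4 lower (-0.72), were each lost when any of 5 single arrays was left out (adjusted p from 0.0554 to 0.135), and the DNAJB5 groups overlapped.

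Of the 23 DNAJC genes 7 rose and 5 fell. The largest falls were those of DNAJC13, which works with HSP70 on endosomal coats, and of DNAJC10, a reductase of the endoplasmic reticulum that cuts disulfide bonds before misfolded proteins are removed. DNAJC13 read 9.31, 9.07 and 9.69 in si_Ctrl, 7.27, 7.38 and 7.55 in si_Med23 and 9.30, 9.16 and 7.74 in si_Elk1. The change in si_Med23 was -1.96 ± 0.38, or 3.88-fold lower (adjusted p = 0.00577), and the array of si_Elk1 oligo C was nearer to the si_Med23 arrays than to its own group. DNAJC10 read 11.18, 11.22 and 11.48 in si_Ctrl, 9.23, 9.48 and 9.64 in si_Med23 and 11.16, 11.02 and 9.96 in si_Elk1. Its change in si_Med23 was -1.84 ± 0.29 (adjusted p = 0.00318). The 3 brighter of its 4 further probe sets gave -1.92, -1.90 and -2.09 and passed.

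The other DNAJC genes that fell were DNAJC2, given above, DNAJC21 and DNAJC24. DNAJC21, a factor of 60S ribosome maturation, read 10.39, 10.36 and 10.49 in si_Ctrl, 9.48, 9.57 and 9.77 in si_Med23 and 10.10, 10.08 and 9.89 in si_Elk1 (-0.81 ± 0.12 in si_Med23, adjusted p = 0.00277). DNAJC24, which is needed to make diphthamide on the translation factor EEF2, fell by 0.77 ± 0.17 (adjusted p = 0.00849). DNAJC21, DNAJC24 and HSPA14 were named after their values had been seen. Their calls and that of DNAJC2 held under median centring, which moves si_Med23 values up, and with any array of the comparison left out. They also held under spike and hybridization control scaling, which move values down and so hardly test a fall. All 4 calls were lost when the probe sets of a gene were averaged.

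The 7 DNAJC genes that rose did so by 0.40 to 1.18 on the log2 scale. With spike scaling all 7 were below 0, and all but DNAJC22 passed as lower. With hybridization control scaling DNAJC1, DNAJC5, DNAJC14, DNAJC17 and DNAJC30 lost their calls. DNAJC22 read 9.09, 9.19 and 9.16 in si_Ctrl, 9.94, 10.71 and 10.33 in si_Med23 and 9.43, 9.50 and 9.62 in si_Elk1 (1.18 ± 0.18 in si_Med23, adjusted p = 0.00297). DNAJC17, a nuclear protein linked to splicing, rose by 0.80 ± 0.17 (adjusted p = 0.009), and the mitochondrial DNAJC30 rose by 0.66 ± 0.15 (adjusted p = 0.00991). DNAJC5, the cysteine string protein of secretory vesicles, rose by 0.65 ± 0.13 (adjusted p = 0.00734). DNAJC4 rose by 0.99 ± 0.18 (adjusted p = 0.00491), but its further probe sets above the filter level gave 0.58, 0.24 and -0.61, none of which passed. The 2 others, DNAJC1 and DNAJC14, rose by 0.47 and 0.40. DNAJC1 lost its call with averaged probe sets, without _x_at and _s_at probe sets and with hybridization control scaling, and its further probe sets read 0.19 and 0.16 and did not pass. DNAJC14 lost its call when any single array of the comparison was left out (adjusted p from 0.0517 to 0.124).

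**Figure D4:**
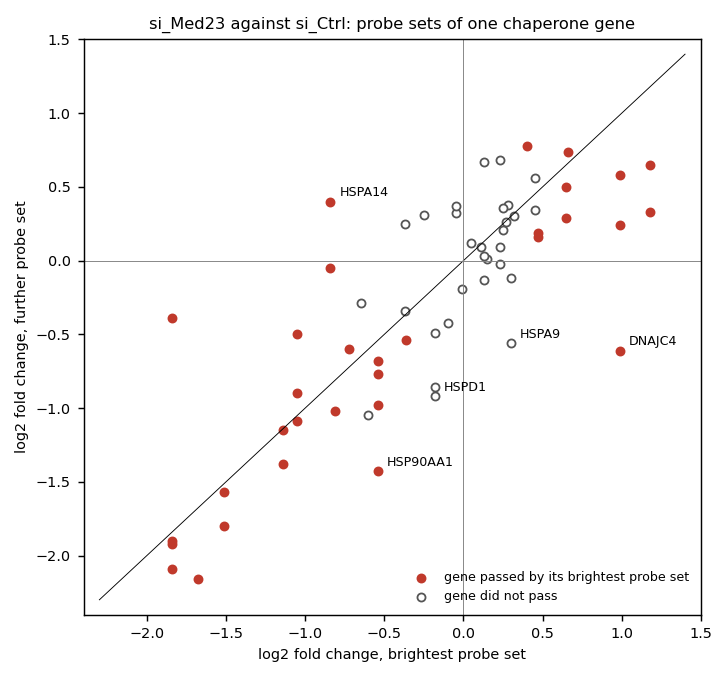
Each point is a further probe set of a chaperone gene above the filter level, with the log2 fold change in si_Med23 of the gene's brightest probe set on the x axis and of the further one on the y axis; red points belong to genes whose brightest probe set passed. Most red points lie near the diagonal line of equal values, and DNAJC4 and HSPA14 each have 1 point of opposite sign.

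Over all chaperone genes, 62 further probe sets of 37 genes were above the filter level. Of the 32 that belong to genes called in si_Med23, 30 had the sign of the brightest probe set, 19 also passed in that direction and 0 passed in the opposite direction. The limma fit over all 27307 probe sets above the filter, from which these counts come, was chosen after the data had been seen. Probe sets of a gene read the same RNA extract and are not replicates.

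In si_Elk1 the chaperone genes moved less. Only DNAJC4 passed, as higher, and no chaperone gene passed as lower by limma. An unadjusted p under 0.05 was found for 17 of the 61 (27.9%), close to the 25.1% of all genes. Of all tested genes 4.26% passed, 3.07% higher and 1.19% lower, and 1.83% passed with at least a 2-fold change, as 0 of the 61 chaperone genes did. DNAJC4 read 7.92, 8.07 and 8.19 in si_Ctrl and 8.65, 8.72 and 9.24 in si_Elk1, a rise of 0.81 ± 0.18 (adjusted p = 0.0456). That call was lost when any of the 6 arrays of the comparison was left out (adjusted p from 0.0683 to 0.136) and with the replicate number as a block (adjusted p = 0.05003). The next in order, chosen after their values were seen, were DNAJB2 (0.47 ± 0.12, adjusted p = 0.0617) and DNAJC2 (-0.68 ± 0.19, adjusted p = 0.0808).

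For 23 of the 61 genes the si_Elk1 and si_Ctrl arrays did not overlap, beside 36.3% of all tested genes, and for 37 of the 61 the si_Med23 and si_Ctrl arrays did not overlap, beside 57.3%. The median chaperone fold change in si_Elk1 was -0.05, beside 0.05 for all genes. The HSP110 genes did not overlap with the controls in si_Elk1 either, with log2 fold changes of -0.47, -0.36 and -0.47 for HSPH1, HSPA4 and HSPA4L, but they did not pass (adjusted p = 0.15, 0.183 and 0.157). Both knockdowns are set against the same 3 control arrays, so their values are not independent of each other. HSPA2, an HSP70 known from testis, read 12.39, 12.38 and 12.25 in si_Ctrl and 12.98, 13.07 and 13.33 in si_Elk1 (0.79 ± 0.25, adjusted p = 0.103).

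The si_Elk1 arrays differed among themselves. Each oligo was read on 1 array, so an oligo and its array cannot be told apart. The array of oligo C was the one farthest from the median of its group for 46 of the 61 chaperone genes (75.4%), beside 59.7% of all tested genes, where 2422 genes had oligo A farthest and 2658 had oligo B. Among the 16 chaperone genes lower in si_Med23, oligo C was the lowest si_Elk1 array for 15 (93.8%), HSPB6 being the exception. The same held for 2074 of all 2462 genes lower in si_Med23 (84.2%). DNAJC10 was at 11.16, 11.02 and 9.96 with oligos A, B and C, DNAJC13 at 9.30, 9.16 and 7.74, and DNAJB14 at 8.84, 8.70 and 8.02. MED23 itself read 8.87, 9.02 and 8.18 on these arrays, lowest with oligo C, and ELK1 read 7.07, 7.15 and 7.83, highest with oligo C. The part of the MED23 signal in the chaperone values of oligo C was not tested.

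**Figure D5:**
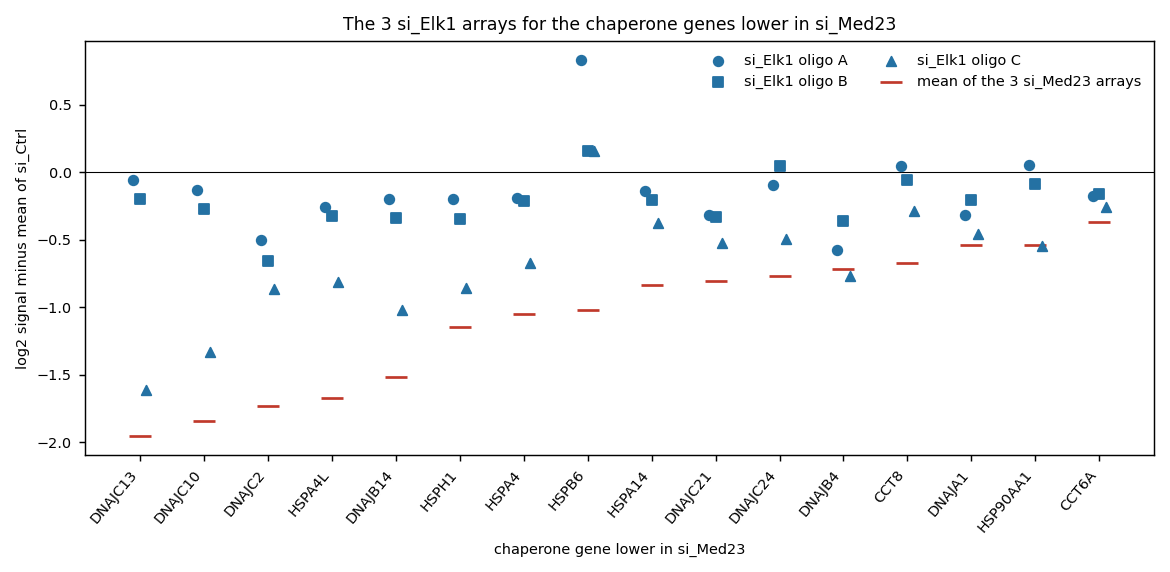
Blue symbols are the log2 signal of the 3 si_Elk1 arrays minus the mean of si_Ctrl for the 16 chaperone genes lower in si_Med23, and red dashes are the mean of the 3 si_Med23 arrays. The triangle of oligo C is the lowest blue symbol for 15 of the 16 genes, HSPB6 being the exception, and for DNAJC13 and DNAJC10 it lies more than 1 log2 unit below 0.

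The log2 fold changes of si_Med23 against si_Elk1 do not use the control arrays, but the tests take their spread from all 9 arrays. In this comparison 9 chaperone genes were higher in si_Med23, 13 were lower and 39 did not pass. So 36.1% were called beside 21.7% of all tested genes (9.54% higher and 12.2% lower). With only the 6 arrays compared, 10 of the 61 were called, beside 8.51% of all genes. A change of at least 2-fold was called for 6 of the 61, beside 6.56% of all genes, and the arrays did not overlap for 29 of the 61, beside 38% of all genes. HSPB8 was higher in si_Med23 by 1.36, HSPB1 by 0.87, DNAJC17 by 0.87 and DNAJC22 by 0.81 on the log2 scale. All 3 HSP110 genes were lower in si_Med23, HSPA4L by -1.21, HSPA4 by -0.69 and HSPH1 by -0.67. Also lower were DNAJC13 (-1.33), DNAJC10 (-1.26), DNAJC2 (-1.06) and HSPB6 (-1.41), the last with a si_Med23 mean below the filter level. The limma adjusted p of HSPH1 was above 0.05 without any of the 3 si_Med23 arrays and without si_Elk1 oligo A or B (0.0567 to 0.103), and that of HSPA4 without si_Med23 oligo A or si_Elk1 oligo A or B (0.0536 to 0.0711). DNAJC13 lost its call without any of the 5 arrays other than si_Elk1 oligo C (0.0686 to 0.123), and DNAJC10 without si_Med23 oligo A or B or si_Elk1 oligo A or B (0.0571 to 0.0772). HSPB6 (0.0539) and HSPB1 (0.0505) lost theirs without si_Elk1 oligo A, and DNAJC17 (0.0508 and 0.0546) and DNAJC22 (0.0725 and 0.0659) without oligo A or B. In all, 17 of the 22 calls were lost on leaving out some array of the 6 compared and 5 were kept.

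DNAJB13, a J-domain protein of cilia and sperm flagella, and DNAJA4 were lower in si_Med23 than in si_Elk1 without passing against the controls. DNAJB13 read 7.67, 7.40 and 7.21 in si_Med23 and 8.40, 8.28 and 8.53 in si_Elk1 (-0.98 ± 0.18, adjusted p = 0.0119), beside 8.07, 7.57 and 8.12 in si_Ctrl. The DNAJA4 call (-0.63 ± 0.18, adjusted p = 0.0411) was lost when any of the 6 arrays was left out (0.064 to 0.104), and with no filter, quantile normalization, median centring, only the 6 arrays or the replicate block. DNAJB1 was higher in si_Med23 by 0.51 ± 0.13 (adjusted p = 0.0284), a call lost when any of 5 single arrays was left out. The counts of 9 higher and 13 lower were sensitive to single arrays. They were 11 and 15 without si_Elk1 oligo C, 3 and 3 without oligo A, 3 and 4 without oligo B, and 7 and 6, 6 and 6, and 8 and 10 without si_Med23 oligos A, B and C.

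Other genes of the chaperone network were counted in lists. In si_Med23, where 39.8% of all genes passed, 3 of 11 HSP70 exchange factors outside HSP110 rose and 3 fell, among them BAG1 (0.79 ± 0.12, adjusted p = 0.00265) higher and BAG4 (-1.05 ± 0.16), BAG2 (-0.97 ± 0.14) and the mitochondrial GRPEL2 (-0.88 ± 0.17) lower. Of 16 HSP90 co-chaperones 3 rose and 3 fell, with the kinase adaptor CDC37 (0.80 ± 0.11) and the myosin chaperone UNC45A (0.82 ± 0.18) higher and CHORDC1 (-1.19 ± 0.22) and SUGT1 (-1.05 ± 0.12) lower. Of 8 mitochondrial chaperones and proteases 3 rose and 2 fell: the matrix protease CLPP (0.78 ± 0.13) and the disaggregase CLPB (0.72 ± 0.16) were higher, and CLPX (-0.91 ± 0.22) and YME1L1 (-1.0 ± 0.23) were lower. With spike scaling the 5 rises given with values were below 0.

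Of the 10 endoplasmic reticulum chaperones kept out by the symbol rule, 4 rose in si_Med23 and 0 fell by limma. Of all tested genes 20.3% rose and 19.5% fell. The 4 were the disulfide isomerases PDIA3 (1.00 ± 0.15, adjusted p = 0.00266), PDIA4 (0.81 ± 0.22) and PDIA6 (0.39 ± 0.12) and the J-domain gene DNAJB11 (0.62 ± 0.18). All 4 were below 0 with spike scaling, and PDIA6 also with hybridization control scaling. HSPA5, the HSP70 of that compartment, did not pass (0.29 ± 0.13, adjusted p = 0.121). HSF1 was the only heat shock factor gene tested and did not pass (0.27 ± 0.15, adjusted p = 0.186), nor did HSBP1 and HSF2BP, which encode binding partners of these factors. Among 18 tested classical targets of heat shock factors, 11 of which are genes of the set described here, 4 rose and 5 fell, beside the same 20.3% and 19.5% of all tested genes. SERPINH1, the collagen chaperone, rose by 1.34 ± 0.16 (adjusted p = 0.00184; -0.27 with spike scaling), while HSPH1, CHORDC1, DNAJA1, DNAJB4 and HSP90AA1 fell. The median over the 18 was -0.03. In si_Elk1, among all these lists, BAG1 (0.57 ± 0.12, adjusted p = 0.0354) and CRYAB, a small heat shock gene outside the rule (0.92 ± 0.18, adjusted p = 0.0317), passed as higher and no gene passed as lower. CRYAB was dim, at 6.62 to 6.96 in si_Ctrl, and was also higher in si_Med23 (0.65 ± 0.18, limma adjusted p = 0.0218). Its call was not followed through the alternatives. The BAG1 call was lost when any of the 6 arrays was left out (adjusted p from 0.0585 to 0.124), with the replicate block (0.0951), with averaged probe sets (0.0674), median centring (0.0596) and only the 6 arrays (0.0599), and it was -0.07 with spike scaling.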

How the data were processed

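RNA of A549 cells was hybridized to 9 Affymetrix arrays, 3 per group. The authors deposited 1 linear signal intensity per probe set. Per the submitters' processing notes, RMA and MAS5 are named with no step given for either, and the trimmed mean of about 500 on every array shows a scaling to a common level. Signals were used as deposited, as log2(intensity + 1), and 62 control probe sets were left out of the tests. Genes were tested where their mean was at least the median probe set's mean (log2 6.05, signal 65.4), which left 12616 genes. limma 3.58.1 (R 4.3.3; lmFit and eBayes) fitted all 9 arrays, with Benjamini-Hochberg adjustment over all tested genes and a threshold of 0.05. The script was tested on simulated data. The number of arrays limits the precision.

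For each comparison the text names the 8 largest rises and falls among called genes with no overlap, the principal chaperones, the 2 targets and up to 4 genes per list. Others were named after their values were seen. The members and lists were chosen with earlier results of these data known. Gene names came from the array's annotation. Same-numbered samples did not deviate together (correlations of deviations from -0.176 to 0.046), so the numbers were not taken as pairs. Alternatives changed the filter, probe set choice, scaling, pseudocount, prior, arrays in the fit and the replicate block. Promoter windows came from RefSeq (GRCh38.p14), with a window for 68 of the 76 genes.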

Additional observations from a re-analysis of the deposited data

How the results depend on the processing

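Of 28 chaperone calls in si_Med23 against si_Ctrl, 20 were kept on leaving out any of the 6 arrays compared. Here and below, the arrays left out are those of the groups compared, although the third group also enters the spread. Under all 3 other scalings 12 of 16 falls were kept, but only median centring moves si_Med23 values up. Spike and hybridization scaling move them down and so hardly test a fall. Under median centring and hybridization control scaling 5 of 12 rises were kept. Precision is limited by 3 arrays per group, and dim genes lie near background. The 12 rises became 5 without probe sets ending in _x_at or _s_at, 24 with centring, 0 with spike scaling and 5 with hybridization scaling, and 9 to 13 when arrays were left out. The 16 falls became 57 with spike and 33 with hybridization scaling, and 12 to 15 when arrays were left out. The median of -0.01 became 0.08 with the filter at percentile 70 and with averaged probe sets, -0.25 without _x_at and _s_at probe sets, -0.10 with quantile normalization, 0.22 with centring, -1.62 with spike scaling and -0.51 with hybridization scaling, and -0.01 to 0.08 when arrays were left out. In si_Elk1 against si_Ctrl the 1 rise became 0 with no filter, averaged probe sets, no _x_at or _s_at probe sets, quantile normalization, centring, both control scalings and the replicate block. It also became 0 when any of the 6 arrays compared was left out. It became 2 at percentile 70 and 3 with only the 6 arrays compared or a trended robust prior. The 0 falls (limma) became 1 at percentile 70, with centring and with the trended prior, and 37 with spike scaling, and stayed 0 when arrays were left out. The median of -0.05 became 0.04 with averaged probe sets, -0.19 with centring, -0.69 with spike and -0.23 with hybridization scaling, and -0.05 to 0.01 when arrays were left out. In si_Med23 against si_Elk1 the 9 higher became 4 with no filter, without _x_at or _s_at probe sets and with hybridization scaling, 27 with centring, 0 with spike scaling and 5 with 6 arrays, and 3 to 11 when arrays were left out. The 13 lower became 4 with no filter, 3 with averaged probe sets, 5 with centring or 6 arrays, 49 with spike and 22 with hybridization scaling, and 3 to 15 when arrays were left out. The median of -0.07 became -0.04 with no filter, 0.04 at percentile 70, -0.16 without _x_at and _s_at probe sets, 0.30 with centring, -1.04 with spike and -0.39 with hybridization scaling, and -0.08 to 0.04 when arrays were left out. With the replicate number as a block the counts of higher and lower were 10 and 14, 0 and 0, and 6 and 6 in the 3 comparisons, and CCT6A, DNAJB4, DNAJB5, DNAJC14 and HSPB6 lost their si_Med23 calls against si_Ctrl. Centring and both control scalings act by a constant shift per array; the cause of the other changes was not tested. Log2 fold changes that reversed without probe sets ending in _x_at or _s_at in si_Med23 against si_Ctrl were HSPA9 -0.56 and DNAJC4 -0.61. Log2 fold changes that reversed with spike scaling in si_Med23 against si_Ctrl were HSPA9 -1.31, HSP90AB1 -1.48, HSPB1 -0.62, DNAJA2 -1.33, DNAJA3 -1.34, DNAJB1 -1.29, CCT2 -1.46, CCT3 -1.53, CCT4 -1.48, CCT7 -1.38, DNAJC22 -0.43, DNAJB2 -0.45, HSPB8 -0.49, DNAJC4 -0.62, CCT6B -0.64, DNAJC17 -0.81, DNAJC30 -0.95, DNAJC5 -0.96, ELK1 -1.07, PFDN2 -1.39, PFDN5 -1.05, BAG1 -0.82, CDC37 -0.81, UNC45A -0.79, HSBP1 -1.36, HSF1 -1.34, HSF2BP -1.46, CLPB -0.89, CLPP -0.83, DNAJB11 -0.99, PDIA3 -0.61, PDIA4 -0.81, PDIA6 -1.22 and SERPINH1 -0.27. Log2 fold changes that reversed with hybridization scaling in si_Med23 against si_Ctrl were CCT2 -0.35, CCT3 -0.41, CCT4 -0.36 and PDIA6 -0.11. Log2 fold changes that reversed with spike scaling in si_Elk1 against si_Ctrl were HSPD1 -0.62, HSPE1 -0.56, DNAJA3 -0.60, CCT3 -0.60, CCT4 -0.58, CCT7 -0.55, DNAJC5 -0.63 and BAG1 -0.07. Log2 fold changes that reversed with spike scaling in si_Med23 against si_Elk1 were HSPA9 -0.58, HSP90AB1 -0.91, HSPB1 -0.10, DNAJA2 -0.81, DNAJA3 -0.73, DNAJB1 -0.46, CCT2 -0.76, CCT3 -0.93, CCT4 -0.89, CCT5 -0.89, CCT7 -0.83, DNAJC22 -0.16, DNAJB2 -0.28, DNAJC4 -0.79, DNAJC17 -0.11, DNAJC30 -0.28 and DNAJC5 -0.34. Over the genes named, 2136 of 2467 alternative values kept direction and side of the threshold, 94 gained a call, 172 lost one and 65 reversed.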
